A study of Mus musculus with 2 samples.

Results

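The 10 genes studied here belong to transforming growth factor beta (TGF-β) and bone morphogenetic protein (BMP) signalling: the ligands Tgfb1, Tgfb2 and Bmp4, the receptors Tgfbr1, Tgfbr2 and Bmpr1a, the inhibitor Smad7 and the targets Id1, Id2 and Id3. They were chosen by gene symbol out of 32285 genes counted in GL261 cells. GL261 is a mouse glioma cell line of the C57BL/6 strain. Adherent cells were grown in DMEM with 10% fetal bovine serum (FBS), and neurosphere cells, the free-floating aggregates, were grown for 12 days in that medium to which B-27, Fibroblast Growth Factor (20 ng/ml) and Epidermal Growth Factor (also 20 ng/ml) had been added. Serum was therefore present in both cultures, and both were frozen before sequencing. By the submitters' protocol both were treated with trypsin, after which neurospheres were also triturated through pipette tips. The paper names trypsin for the adherent cells only. Each culture was sequenced as 1 single-cell library.

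TGF-β and BMP ligands are secreted proteins that bind pairs of type I and type II receptor kinases at the cell surface. The receptors phosphorylate Smad proteins, which enter the nucleus with Smad4 and switch target genes on or off. Id1, Id2 and Id3 are classic targets of BMP signalling. Id proteins have a helix-loop-helix domain but no DNA-binding region, so they bind bHLH transcription factors and keep them from DNA. In neural cells, Id proteins are known for holding back differentiation, and TGF-β is known in glioma as a ligand made by the tumor cells themselves.

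After filtering, 5051 adherent and 4276 neurosphere cells were kept, with medians of 8260 and 13198.5 unique molecular identifiers (UMIs) per cell and 46290996 and 64943938 UMIs in all. Levels are UMIs per 1000000 UMIs on the genes left (CPM), and a log2 ratio is the neurosphere over the adherent CPM. With 1 library per culture no difference has a replicate check, no test was run, and all intervals are exact 95% intervals that cover counting error only. Since neurosphere cells were deeper, cells were also thinned to 5000 UMIs before counting those with a UMI, which left 4464 adherent and 4196 neurosphere cells. A change is called "higher" or "lower" past 2-fold, among the 14654 genes that had 50 or more UMIs in the libraries combined. The libraries shared 9 barcodes among kept cells. The labels call the cells astrocytoma, and of 7 astrocyte markers looked up after the data were seen, Aqp4 and Sox9 had 0 UMIs in both cultures and Gfap had 30 UMIs in adherent cells against 27 UMIs in neurosphere cells. S100b was at 160.7 CPM in adherent cells against 254.6 CPM in neurosphere cells, and Slc1a3 was at 370.4 and 80.5 CPM. Vim was at 5583 CPM in adherent cells against 1763 CPM in neurosphere cells, and Aldh1l1 had 168 and 350 UMIs.

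A pair of sequence blocks shows what the Id genes share and what lies just before Tgfb2 and Tgfbr2. The first is the in-frame stretch of 41 codons (123 bases) in which the coding sequences of the 3 Id genes are most alike, with the bases that are the same in all 3 in capitals. It lies in the part that encodes the helix-loop-helix domain, within 1 exon in each gene. In GRCm38 it is chr2:152736515-152736637 (plus strand) in Id1, chr12:25095783-25095905 (minus strand) in Id2 and chr4:136143999-136144121 (plus strand) in Id3.
Id1: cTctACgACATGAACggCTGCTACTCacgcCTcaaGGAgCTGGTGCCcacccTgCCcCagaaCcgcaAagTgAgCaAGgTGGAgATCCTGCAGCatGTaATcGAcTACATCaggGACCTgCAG
Id2: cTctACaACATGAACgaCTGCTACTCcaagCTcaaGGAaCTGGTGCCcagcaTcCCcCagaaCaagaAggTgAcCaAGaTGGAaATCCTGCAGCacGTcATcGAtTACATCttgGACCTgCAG
Id3: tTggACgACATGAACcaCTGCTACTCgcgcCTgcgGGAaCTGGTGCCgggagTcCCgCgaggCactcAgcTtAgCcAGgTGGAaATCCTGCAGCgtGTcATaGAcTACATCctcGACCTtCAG
Of the 123 bases, 78 bases (63.4%) were the same in all 3 genes. Id1 and Id2 shared 82.1% of the bases in this stretch, Id1 and Id3 shared 69.9%, and Id2 and Id3 shared 70.7%. Over the whole transcripts the longest run common to a pair was 11 bases for Id1 and Id2, 12 bases for Id1 and Id3 and 19 bases for Id2 and Id3.

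The second block is the 250 bases before the RefSeq start (GRCm38.p6) of Tgfb2 and Tgfbr2, the genes over 2-fold higher in neurosphere cells, 5′ to 3′ on the gene's strand. Entries were found for 8 of the 10 genes. Those of Id2 and Id3 are not shown, since they overlap exons of these genes in the GENCODE annotation. Capitals mark CAGAC or its reverse complement GTCTG, the core of the Smad-binding element, and GGCGCC, a GC-rich motif bound by BMP Smads, which reads alike on both strands. The positions are chr1:186705990-186706239 (minus strand) for Tgfb2 and chr9:116175364-116175613 (minus strand) for Tgfbr2, both outside the annotated span of their gene.
Tgfb2 promoter: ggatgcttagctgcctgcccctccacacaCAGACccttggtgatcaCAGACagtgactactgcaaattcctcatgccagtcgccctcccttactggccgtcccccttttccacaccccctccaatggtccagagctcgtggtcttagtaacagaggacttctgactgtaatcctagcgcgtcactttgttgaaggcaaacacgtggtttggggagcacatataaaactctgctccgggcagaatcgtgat
Tgfbr2 promoter: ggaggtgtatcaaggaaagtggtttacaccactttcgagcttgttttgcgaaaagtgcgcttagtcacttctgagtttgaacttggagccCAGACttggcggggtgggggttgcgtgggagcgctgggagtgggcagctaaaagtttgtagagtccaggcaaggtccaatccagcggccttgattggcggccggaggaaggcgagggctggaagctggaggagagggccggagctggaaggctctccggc
CAGAC on either strand occurred 2 times in the Tgfb2 window and 1 time in that of Tgfbr2. Of 32851 promoters of this length, 42.2% held it at least 1 time and 11.7% held it 2 or more times. GGCGCC occurred 0 times in both windows, and 9.59% of all promoters held it. These matches describe the letters only.

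Of the 10 genes, 9 passed the minimum of 50 UMIs. Tgfb2 and Tgfbr2 were higher in neurosphere cells, 2 of 9 genes, where 21.7% of all 14654 genes were higher. Id1, Id2 and Id3 were lower, 3 of 9 genes, where 11.7% of all genes were lower. Tgfb1, Tgfbr1, Bmpr1a and Smad7 stayed within 2-fold, and Bmp4 was not detected. The median log2 ratio over the 9 genes was -0.36, beside 0.32 over all 14654 genes. Another scaling (TMM) moved the median of all genes by -0.22 to 0.10 and the split of calls to 16.1% higher and 14.5% lower, and the 9 ratios moved with it without a change of sign. When mitochondrial and ribosomal UMIs stayed in the total, the median of all genes was 0.54, 29.5% were higher and 9.38% lower, and Tgfbr1 joined the higher genes at 1.12. With a limit of 1.5-fold, 3 of the genes were higher and 3 lower, where 38.2% and 18.3% of all genes were.

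**Figure D1:**
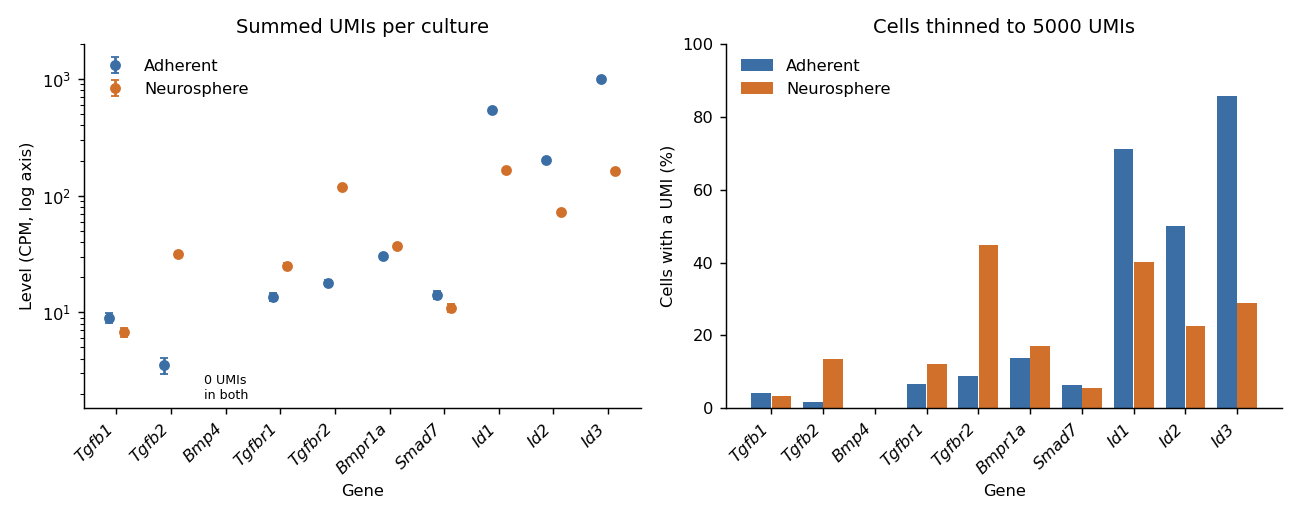
Left, level of each of the 10 genes in CPM on a log axis, with exact 95% Poisson intervals, in the adherent and the neurosphere library; right, percent of cells with a UMI after thinning to 5000 UMIs. The Id genes sit lower in neurosphere cells in both panels, Tgfb2 and Tgfbr2 sit higher, and Bmp4 had 0 UMIs in both cultures.

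Among the ligands, Tgfb2 (ENSMUSG00000039239, chr1:186622792-186705989) had 162 UMIs in adherent cells against 2037 UMIs in neurosphere cells. Its level was 3.50 CPM (2.98 to 4.08) in adherent cells against 31.4 CPM (30.02 to 32.76) in neurosphere cells, a log2 ratio of 3.16 (2.93 to 3.40). In thinned cells a UMI of Tgfb2 was found in 1.75% of adherent cells against 13.5% of neurosphere cells, and in 3.01% and 25.5% without thinning. The variance over the mean of thinned UMIs was 2.05 in neurosphere cells, where the mean was 0.202 UMIs per cell, and 1.08 in adherent cells, where it was 0.0184. Tgfb2 overlaps the annotated gene Gm29491 on the other strand, which had 13 UMIs in adherent cells against 130 UMIs in neurosphere cells.

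Tgfb1 (ENSMUSG00000002603, chr7:25687002-25705077), the form of TGF-β made by most cell types, did not follow Tgfb2. It was at 8.94 CPM (8.10 to 9.85) from 414 UMIs in adherent cells and at 6.73 CPM (6.11 to 7.39) from 437 UMIs in neurosphere cells, a log2 ratio of -0.41 (-0.61 to -0.21). A UMI of Tgfb1 was found in 4.35% of thinned adherent cells against 3.50% of thinned neurosphere cells. Without thinning the shares were 7.60% and 8.96%, which is the order of depth and not that of the levels. Macrophages and microglia are rich in Tgfb1, and of their markers Tyrobp and C1qa had 0 UMIs in both cultures and Ptprc had 1 UMI in adherent cells against 0 UMIs in neurosphere cells. Over all 11 immune markers the summed level was 13.7 CPM in adherent cells against 5.50 CPM in neurosphere cells, most of it from Cd68, the lysosomal protein, at 10.5 and 4.25 CPM. Lyz2 had 119 and 34 UMIs and Csf1r had 5 and 19 UMIs, and the part of such cells in the Tgfb1 level was not tested.

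Bmp4 (ENSMUSG00000021835, chr14:46383520-46390669), the BMP ligand most often given to glioma cells to make them differentiate, had 0 UMIs in 5051 adherent and 0 UMIs in 4276 neurosphere cells. Taken as 3 counts, the limit that a count of 0 allows is 0.0648 CPM in adherent cells against 0.0462 CPM in neurosphere cells, or a UMI in 0.0594% and 0.0702% of the cells. The upper ends of the exact intervals are 0.0797 and 0.0568 CPM.

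Among the receptors, Tgfbr2 (ENSMUSG00000032440, chr9:116084293-116175360), the type II receptor that binds TGF-β first, stood out. It had 826 UMIs, or 17.8 CPM (16.6 to 19.1), in adherent cells and 7729 UMIs, or 119.0 CPM (116.4 to 121.7), in neurosphere cells. The log2 ratio was 2.74 (2.63 to 2.84), a ratio of 6.67. Thinned cells with a UMI made up 8.80% of adherent cells against 44.7% of neurosphere cells, and 14.7% and 74.2% without thinning. The variance over the mean of its thinned neurosphere UMIs was 1.17, at a mean of 0.646 UMIs per cell.

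Tgfbr1 (ENSMUSG00000007613, chr4:47353222-47414931), the type I receptor that carries the signal on, was at 13.4 CPM (12.4 to 14.5) from 622 UMIs in adherent cells and at 25.1 CPM (23.9 to 26.4) from 1632 UMIs in neurosphere cells. Its log2 ratio of 0.90 (0.77 to 1.04) fell just short of 2-fold. Its share of thinned cells was 6.61% in adherent cells against 12.2% in neurosphere cells, and 11.05% and 29.3% without thinning.

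Bmpr1a (ENSMUSG00000021796, chr14:34410734-34503341), a type I receptor for BMP ligands, was at 30.3 CPM (28.7 to 31.9) from 1402 UMIs in adherent cells and at 37.3 CPM (35.8 to 38.8) from 2422 UMIs in neurosphere cells. The log2 ratio of 0.30 (0.20 to 0.40) was close to the median of all genes. Its share of thinned cells was 13.8% in adherent cells against 16.99% in neurosphere cells, and 23.2% and 40.1% without thinning.

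Both TGF-β receptors were seen in the same thinned cell in 0.582% of adherent cells (26 cells) and 5.72% of neurosphere cells (240 cells). These shares lie close to the products of the separate shares, 0.582% and 5.44%. At least 1 of the receptors had a UMI in 14.8% of adherent cells against 51.2% of neurosphere cells, and Tgfb1 or Tgfb2 had a UMI in 6.05% and 16.5%. A TGF-β ligand together with both receptors was seen in 1 adherent and 48 neurosphere cells, 0.0224% and 1.14% of the thinned cells. Low UMI counts per cell limit all of these shares.

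Smad7 (ENSMUSG00000025880, chromosome 18), the inhibitory Smad that blocks the activated receptors, was at 14.0 CPM (12.98 to 15.16) from 650 UMIs in adherent cells and at 10.9 CPM (10.1 to 11.8) from 710 UMIs in neurosphere cells. The log2 ratio was -0.36 (-0.52 to -0.21), and among cells at or below the median level of G2/M genes it was 0.07, on the other side of 0. Its share of thinned cells was 6.47% in adherent cells against 5.48% in neurosphere cells, and 11.5% and 13.6% without thinning.

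The 3 Id genes were all lower in neurosphere cells. Id3 (ENSMUSG00000007872, chr4:136143497-136145755) changed most, from 45934 UMIs, or 992.3 CPM (983.2 to 1001), in adherent cells to 10624 UMIs, or 163.6 CPM (160.5 to 166.7), in neurosphere cells. Its log2 ratio was -2.60 (-2.63 to -2.57), so the neurosphere level was 16.5% of the adherent level. Among cells at or below the median G2/M level the log2 ratio was -1.95. With every cell weighted equally and nothing added, a setting added after seeing the data, the log2 ratio was -2.19.

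Id1 (ENSMUSG00000042745, chr2:152736251-152737410) was at 538.6 CPM (531.9 to 545.3) from 24931 UMIs in adherent cells and at 166.7 CPM (163.5 to 169.8) from 10823 UMIs in neurosphere cells. Its log2 ratio was -1.69 (-1.72 to -1.66), which leaves 30.9% of the adherent level. Id2 (ENSMUSG00000020644, chr12:25093799-25097140) was at 203.0 CPM (198.9 to 207.1) from 9395 UMIs in adherent cells and at 72.8 CPM (70.8 to 74.9) from 4730 UMIs in neurosphere cells, a log2 ratio of -1.48 (-1.53 to -1.43).

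The shares of cells moved the same way although neurosphere cells were the deeper ones. A UMI of Id3 was found in 89.3% of adherent cells against 41.5% of neurosphere cells, and in 85.8% and 28.9% after thinning. For Id1 the shares were 78.2% and 58.6%, and 71.1% and 40.1% after thinning. For Id2 they were 62.6% and 39.0%, and 49.9% and 22.5% after thinning. Both libraries hold a single cell line, so no cell type known to lack these genes was there as a background for free RNA.

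Within neurosphere cells, the UMIs of Id3 were unevenly spread over the cells. After thinning, 71.1% of neurosphere cells had 0 UMIs of Id3, while 2.45% had 10 or more and the highest cell had 36 UMIs. The 5% of cells with the most Id3 held 53.5% of its neurosphere UMIs, against 18.7% in adherent cells, where 14.2% of cells had 0 UMIs and 15.3% had 10 or more. The variance over the mean was 7.86 in neurosphere and 4.84 in adherent cells, although the mean per thinned cell was 1.05 and 4.95 UMIs. A share held by the top cells rises as the mean falls. It was 47.4% in neurosphere and 27.6% in adherent cells for Id2, and 32.0% and 22.5% for Id1. The variance over the mean was slightly higher in neurosphere cells for Id2 as well, at 2.49 against 2.20 in adherent cells. For Id1 it went the other way, at 2.41 in neurosphere and 3.85 in adherent cells.

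The Id genes were found together in more of the adherent than of the neurosphere cells. All 3 had a UMI in 38.8% of thinned adherent cells (37.3% to 40.2%), 1.27 times the product of their separate shares. In neurosphere cells all 3 were found in 2.10% (1.69% to 2.58%), or 88 cells, 0.804 times that product. Cells with none of the 3 made up 6.59% of adherent cells against 31.0% of neurosphere cells. Since higher counts alone make joint detection more frequent, the adherent Id UMIs were also thinned to the neurosphere means, an alternative added after seeing the data. All 3 were then found in 12.1% of adherent cells (11.2% to 13.1%), 1.81 times the product of the shares.

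**Figure D2:**
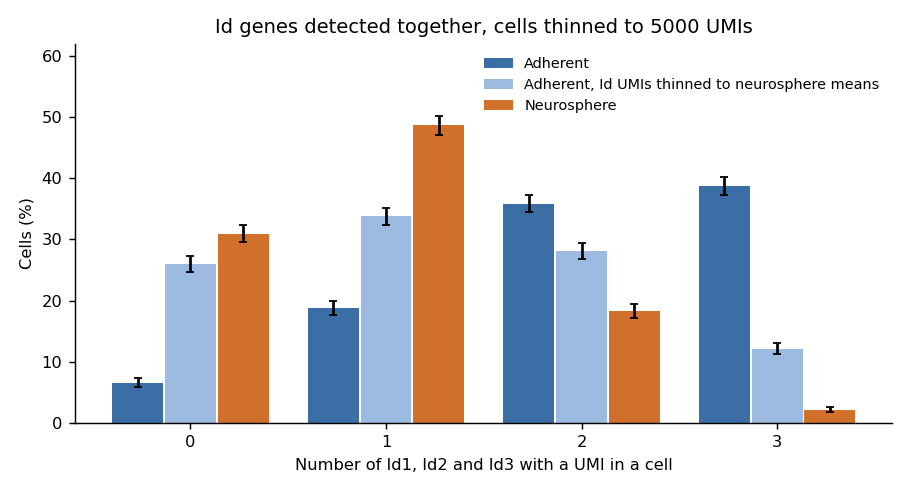
Percent of cells (thinned to 5000 UMIs) in which 0, 1, 2 or 3 of Id1, Id2 and Id3 had a UMI, with exact 95% binomial intervals; the pale bars are adherent cells whose Id UMIs were further thinned to the neurosphere means. All 3 genes were found in 38.8% of adherent cells, 12.1% of the further thinned adherent cells and 2.10% of neurosphere cells.

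The correlations over cells, given as a description since the cells share a library, had the same pattern. On log2(thinned UMIs + 1), Pearson's r of Id1 and Id3 was 0.54 over 4464 adherent cells and -0.07 over 4196 neurosphere cells. For Id1 and Id2 r was 0.39 and -0.07, and for Id2 and Id3 it was 0.39 and 0.01. With adherent Id UMIs thinned to the neurosphere means, the adherent values were 0.30, 0.23 and 0.21 in the same order. Within the adherent clusters with enough thinned cells, r of Id1 and Id3 ran from 0.33 to 0.62. Within neurosphere clusters it ran from -0.29, in the cluster led by Enpp2 and Mbp, to 0.17.

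For each gene found in at least 20% of thinned cells of a culture, the most similar genes were sought among those in at least 10% of cells, 5728 genes in adherent and 6662 genes in neurosphere cells. In adherent cells the genes closest to Id3 were Id1, Id2 and Dbi, the acyl-CoA-binding protein, with r of 0.39 for Dbi. Dbi was also the closest gene outside the Id family for Id1, at 0.30, and for Id2, at 0.21. In neurosphere cells the genes closest to Id3 were Sparc, Anxa5 and Sat1, with r of 0.27, 0.27 and 0.26. Sparc encodes a matrix glycoprotein, Anxa5 a lipid-binding annexin and Sat1 an enzyme of polyamine breakdown. For Id1, Id2 and Tgfbr2 in neurosphere cells no gene reached r of 0.2.

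The cells were clustered in each culture without these 10 genes among the variable genes, which gave 10 adherent and 11 neurosphere clusters, here named by their leading genes. For Tgfbr2 the 11 neurosphere clusters ran from 73.0 to 172.7 CPM and the 10 adherent clusters from 11.6 to 27.1 CPM, without overlap. How many of all genes have clusters that do not overlap between the cultures was not counted. For Tgfb2 the neurosphere clusters ran from 12.2 to 143.2 CPM. The adherent clusters ran from 1.88 to 6.17 CPM, apart from a cluster of 48 cells led by Lars2, with a median of 2623.5 UMIs per cell, at 37.7 CPM. In that shallow cluster Tgfbr1 was at 90.5 CPM and Bmpr1a at 98.1 CPM. Without it, the log2 ratios were 3.21 for Tgfb2, 0.93 for Tgfbr1 and 0.31 for Bmpr1a.

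The highest Tgfb2 level, 143.2 CPM, was in the neurosphere cluster led by Comp, a cartilage matrix protein, and Pdzd2. That cluster held 14.2% of the kept neurosphere cells and 36.4% of their Tgfb2 UMIs, and Tgfbr2 was highest there as well, at 172.7 CPM. Its median depth was 7672 UMIs per cell and its summed G2/M genes were at 1520 CPM, the lowest of the 11 clusters. Leaving out the highest cluster of each culture, the log2 ratio of Tgfb2 was 2.67.

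The Id genes differed in where they peaked among neurosphere cells. The cluster led by Btbd17, Ifit3b, Ifit3 and Zbp1, the latter 3 known as interferon-induced genes, made up 6.55% of neurosphere cells. It had the highest neurosphere level of Id3, 528.4 CPM, of Id2, 168.8 CPM, and of Tgfb1, 24.2 CPM, and the lowest level of Id1, 80.7 CPM. Id3 was next highest, at 425.6 CPM, in the cluster led by Enpp2 and Mbp, genes known from oligodendrocytes. Id1 was highest, at 226.0 CPM, in the cluster led by Cox6a2, Nupr1 and Hmox1, with the next cluster close by at 224.7 CPM. With a resolution of 0.8, which gave 7 neurosphere clusters, the highest levels were 443.0 CPM for Id3, 110.4 CPM for Id2 and 14.8 CPM for Tgfb1. They were then no longer in the same cluster, since the cluster highest in Id2 and Tgfb1 had Id3 at 327.9 CPM and Id1 at 145.1 CPM, above the lowest Id1 level of 136.5 CPM, and the cluster highest in Id3 had Id2 at 55.3 CPM and Tgfb1 at 3.24 CPM.

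Among adherent cells, the cluster led by Ly6a and Cd81, 208 cells, had the lowest level of Id1, 133.8 CPM, and of Id2, 90.2 CPM. Id3 was at 355.8 CPM there and at 218.8 CPM in the shallow cluster. In the cluster led by Tex14, by contrast, Id1 and Id3 were highest, at 654.6 and 1340 CPM. In the Ly6a cluster the correlation was 0.01 for Id1 and Id2, 0.08 for Id2 and Id3 and 0.33 for Id1 and Id3. Over all adherent cells it was 0.39 for Id1 and Id2 and also for Id2 and Id3. With adherent Id UMIs thinned to the neurosphere means these values were 0.23 and 0.21. Sparse counts lower r, and Id1 and Id2 were lowest in the Ly6a cluster. Of the 11 neurosphere clusters, 9 lay below every adherent cluster in Id2 and 7 in Id3. Without the shallow cluster it was 9 in Id3. In Id1 only 1 did, since the Ly6a cluster was at 133.8 CPM. The other adherent clusters had Id1 at 226.3 CPM (the shallow cluster) or from 350.7 CPM up. The highest neurosphere cluster had it at 226.0 CPM.

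**Figure D3:**
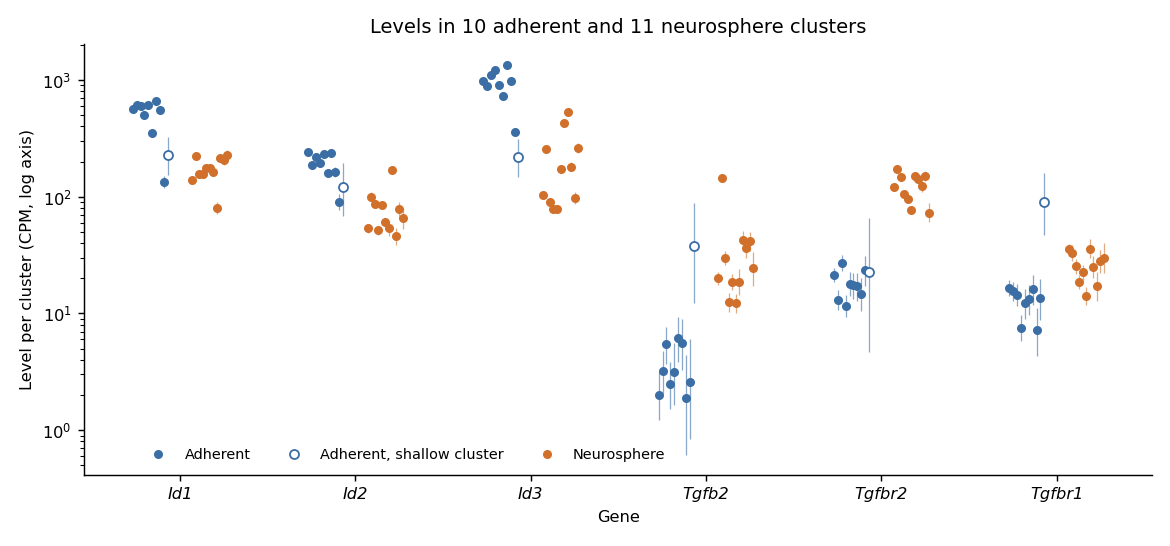
Level in CPM, on a log axis, of 6 genes in each of the 10 adherent and 11 neurosphere clusters, with exact 95% Poisson intervals; the open circle is the shallow adherent cluster of 48 cells. The clusters of the cultures do not overlap for Tgfbr2, and how many of all genes behave so was not counted. They overlap for each Id gene, for Id1 only through the adherent cluster led by Ly6a.

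The G2/M level varied with Id3 and Tgfb2 in neurosphere cells. Thinned cells were divided into 4 equal bins by their summed UMIs of 52 G2/M genes, 1049 neurosphere and 1116 adherent cells in each bin. From the lowest to the highest bin, neurosphere Id3 went from 360.9 to 252.4, 134.6 and 92.5 CPM, a ratio of 3.90 between the ends. Neurosphere Tgfb2 went from 76.1 to 48.0, 21.9 and 15.4 CPM, a ratio of 4.93. In adherent cells Id3 was at 1019 CPM in the lowest and 1104 CPM in the highest bin, and Tgfb2 was at 5.38 and 2.33 CPM.

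The other Id genes varied less with the G2/M level. In neurosphere cells Id1 was at 202.7 CPM in the lowest and 147.4 CPM in the highest bin, and Id2 was at 92.9 and 61.4 CPM. In adherent cells the highest bin had the higher level, 626.2 against 531.2 CPM for Id1 and 252.0 against 200.7 CPM for Id2. Id3 was lower in neurosphere than in adherent cells in each bin. Summed over the 52 genes, the G2/M level was 8846 CPM in adherent cells against 9291 CPM in neurosphere cells.

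**Figure D4:**
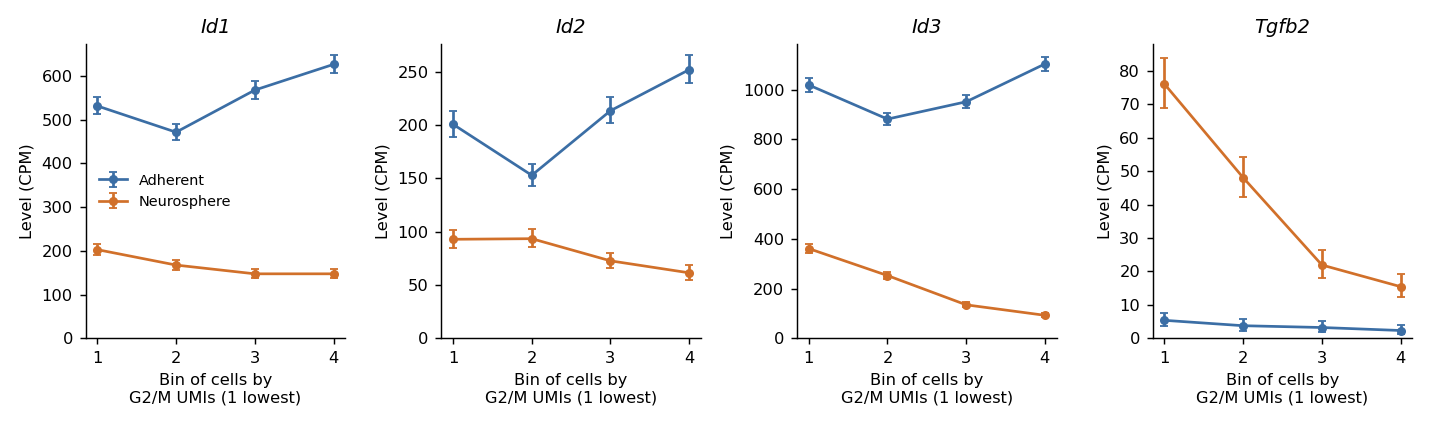
Level in CPM of Id1, Id2, Id3 and Tgfb2, with exact 95% Poisson intervals, in 4 equal bins of the thinned cells ranked by their UMIs of 52 G2/M genes, for adherent and neurosphere cells. Neurosphere Id3 and Tgfb2 go down from bin 1 to bin 4, from 360.9 to 92.5 CPM and from 76.1 to 15.4 CPM.

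The rest of the pathway was read from lists of known genes, with counts of genes over 2-fold beside the background of 21.7% higher and 11.7% lower. Of 28 other TGF-β and BMP family ligands, 9 were counted, 4 were higher and 1 was lower, with a median log2 ratio of 0.06. Bmp2 had 4 UMIs in adherent cells against 95 UMIs in neurosphere cells, a log2 ratio of 4.08, and Inhba, which encodes an activin subunit, had 6 and 58 UMIs, a log2 ratio of 2.78 that rests on few cells, 0.119% of adherent and 0.257% of neurosphere cells. Bmp15, best known from the oocyte, had 0 and 298 UMIs, a log2 ratio whose exact interval has its lower end at 5.84. Gdf15, a stress-induced member of the family, fell from 317.6 to 36.4 CPM, a log2 ratio of -3.12.

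Latent TGF-β has to be released from its propeptide, and genes for that step moved in both directions. Of 13 genes, 10 were counted, 2 were higher and 4 were lower, with a median log2 ratio of -0.74, while TMM scaling gave 1 higher and 5 lower. Itgb8, the integrin subunit that activates latent TGF-β on neural cells, rose from 7.06 to 91.4 CPM, a log2 ratio of 3.69. Itgb6, which does so in epithelium, fell from 81 to 3 UMIs, a log2 ratio of -5.24. Thbs1, a secreted activator, fell from 7.60 to 0.785 CPM, and the matrix gene Fbn2 fell from 125.5 to 14.2 CPM.

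Of 14 other receptors and coreceptors, 10 were counted, 4 were higher and 1 was lower, and their median log2 ratio was 0.89. The number higher depended on the scaling. Under TMM 3 of 10 were higher, beside 16.1% of all genes. When mitochondrial and ribosomal UMIs stayed in the total, 7 of 10 were higher, beside 29.5% of all genes. Under both, 1 was lower. The highest ratios were those of Bmpr1b, a type I BMP receptor, at 3.19 from 5 and 64 UMIs, Neo1, a receptor for repulsive guidance molecules, at 1.51, and Acvr2b, a type II activin receptor, at 1.38. Amhr2 fell from 39 to 22 UMIs, a log2 ratio of -1.31. The 6 Smads that carry the signal were all counted, and Smad1, a BMP Smad, rose from 28.9 to 81.5 CPM. The other 5 stayed within 2-fold, with log2 ratios of 0.58 for Smad2, -0.13 for Smad3, 0.14 for Smad4, 0.06 for Smad5 and -0.46 for Smad9.

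Among 16 secreted antagonists, 8 were counted, 2 were higher and 2 were lower, with a median log2 ratio of 0.27. Dcn, a matrix proteoglycan that binds TGF-β, had 1 UMI in adherent cells against 3606 UMIs in neurosphere cells, a log2 ratio of 11.33 (8.85 to 16.63). With mitochondrial and ribosomal UMIs in the total, 3 of the 8 were higher. Chrdl1 rose from 29 to 174 UMIs, while the related Chrdl2 fell from 177 to 6 UMIs and the activin antagonist Fstl3 fell from 674 to 55 UMIs. Nog and Grem1, which encode the BMP antagonists noggin and gremlin-1, had 0 UMIs in both cultures. Of 10 intracellular inhibitors, 9 were counted, with a median log2 ratio of 0.16, of which 2 were higher, or 3 with mitochondrial and ribosomal UMIs in the total. The ubiquitin ligase gene Smurf2 and the corepressor gene Skil were higher, at log2 ratios of 1.43 and 1.32, and Tgif1 was lower, at -1.86.

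Known TGF-β targets did not move together. Of 17 genes, 11 were counted, 4 were higher and 5 were lower, with a median log2 ratio of -0.41. Col1a1, which encodes collagen I, rose from 2.51 to 329.0 CPM, a log2 ratio of 7.04, Postn rose from 9 to 98 UMIs, and Skil, which also stands among the inhibitors, rose as given above. Tgfbi fell from 2.74 to 0.370 CPM and Timp1 from 605.0 to 82.0 CPM.

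BMP targets other than Id1 to Id3 were scarce. Of 13 genes, 5 were counted and 0 of these 5 changed over 2-fold, with a median log2 ratio of -0.49. Msx1, Msx2, Dlx5, Nog, Tbx3 and Id4 had 0 UMIs in both cultures, and Smad6 had 2 UMIs in adherent cells against 0 UMIs in neurosphere cells. With TMM scaling 1 gene of the list was lower.

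The last list holds bHLH factors that Id proteins bind or that act beside them. Of 14 genes including Id4, 8 were counted, 6 were higher and 0 were lower, with a median log2 ratio of 1.68, and 1 was lower with TMM scaling. Hes5 rose from 14 to 1112 UMIs, a log2 ratio of 5.82. Olig1 and Olig2, factors of the oligodendrocyte lineage, rose from 141.1 to 1292 CPM and from 69.8 to 465.1 CPM. The E protein genes Tcf3, Tcf4 and Tcf12, whose products are direct partners of Id proteins, had log2 ratios of 1.53, 1.54 and 1.82.

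**Figure D5:**
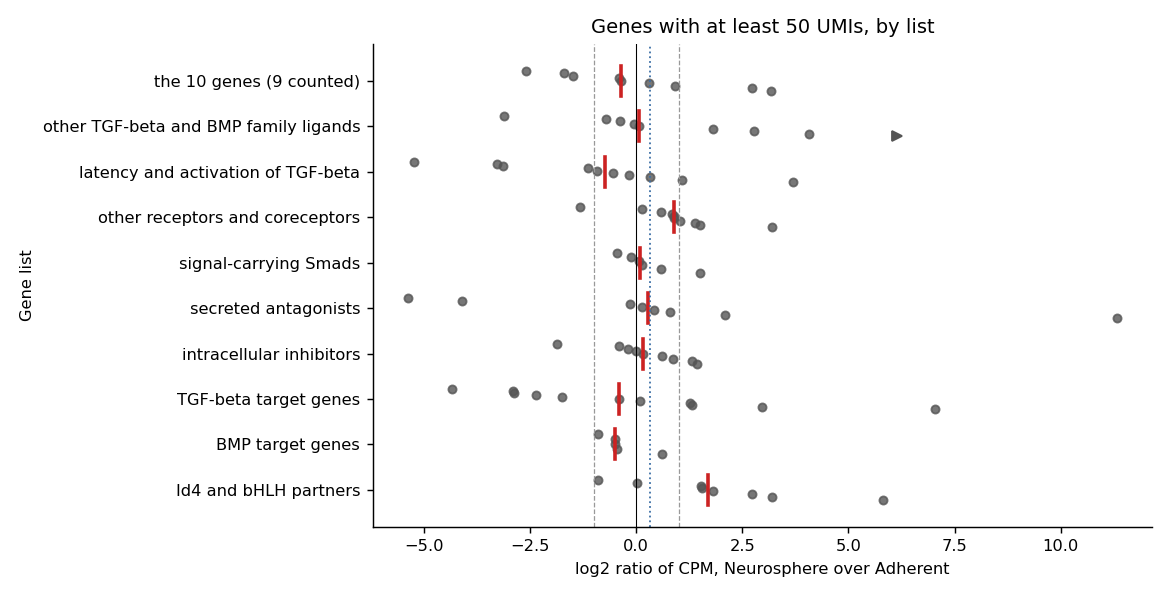
Log2 ratio of CPM, neurosphere over adherent, of each gene with at least 50 UMIs in 10 gene lists; red bars are list medians, the dotted line the median of all genes (0.32), dashed lines 2-fold, and the triangle Bmp15 against a floor of 3 adherent UMIs. The BMP targets stay within 2-fold, the TGF-β targets spread to both sides, and 6 of 8 bHLH partners lie past 2-fold higher.

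Several other measures differed between the cultures, and their part in these results was not tested. Summed over 14 genes known to respond to tissue dissociation, the level was 1240 CPM in adherent cells against 2120 CPM in neurosphere cells. Of the 12 counted, 5 were higher and 3 were lower (3 and 3 under TMM, 6 and 1 when mitochondrial and ribosomal UMIs stayed in the total), with Jund going from 358.9 to 1029 CPM and Ier3 from 260.4 to 45.6 CPM. The median mitochondrial share was 2.02% in adherent cells against 3.97% in neurosphere cells. Of 41 G1/S genes 9 were higher and 0 lower, with 6 and 13 higher under these other scalings. Of 52 G2/M genes 1 was higher and 2 were lower, with 0 and 4 higher. Beside these, 21.7% of all genes were higher and 11.7% lower. The shares were 16.1% and 14.5% under TMM, and 29.5% and 9.38% with mitochondrial and ribosomal UMIs in the total. The share of G1/S genes that were higher was close to that of all genes. Among markers of other cell types, the endothelial Cdh5 had 0 UMIs in both cultures, and the mural Pdgfrb had 32 UMIs in adherent cells against 4 UMIs in neurosphere cells. Pecam1 had 61 and 208 UMIs. Col3a1, a fibroblast collagen, went from 179 to 11553 UMIs, and Lum from 0 to 143 UMIs. Summed over 6 endothelial markers the level was 1.51 CPM in adherent cells against 3.94 CPM in neurosphere cells, and over 7 mural and fibroblast markers it was 11.3 and 185.2 CPM.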

How the data were processed

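The authors deposited, for 1 adherent and 1 neurosphere library (10x single cell 3′ v3), the raw UMI count of each gene in each cell that Cell Ranger called. The submitters' processing notes name Cell Ranger 7.0.1 and mm10. Strand and intron settings are not given in the sources used here. Before filtering, the libraries held 68531063 and 82832873 UMIs in 5764 and 4951 cells, which sets the precision.

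After the authors' methods, 13 mitochondrial (mt-) and 101 ribosomal (Rps, Rpl) genes were removed, then cells under 1000 UMIs or under 1250 (adherent) or 2250 (neurosphere) genes. Doublets were not removed. UMIs were summed per library and scaled to CPM, with exact 95% intervals (conditional for ratios, Poisson for CPM, Clopper-Pearson for shares) that cover counting error only. Cells are not replicates, and the 1 library per culture is a single culture of 1 cell line. Thinning to 5000 UMIs left out 587 adherent and 80 neurosphere cells. Clustering used Seurat 5.3.0 in R 4.3.3 (2000 variable genes less the 10 genes studied, 17 and 18 PCs, resolution 1.0). TMM came from edgeR 4.0.16, and the rest was run in Python 3.11.15 with scipy 1.17.1. Positions are from GENCODE M21 (GRCm38), where 32235 gene identifiers matched, and promoters from RefSeq. The interval calculation was tested on simulated data.

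Named are the 10 genes, of each list up to 3 genes with the highest and 3 with the lowest log2 ratio past 2-fold, for genes in at least 20% of cells up to 3 with the highest r (at least 0.2), and the most abundant stress and other cell type markers. List genes at 0 or 1 to 3 UMIs, Smad2 to Smad9, the E protein genes, the defining markers of other cell types and the astrocyte markers were named after their values were seen. Some genes of the lists are counted in the list totals but not reported here. The 10 genes and all lists were chosen with earlier results of these data known.

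Alternatives covered TMM, mitochondrial and ribosomal genes kept, the cell filters, the minimum UMIs, a 1.5-fold limit, gene length, cells of low G2/M level, cell weighting, thinning and the clustering resolution.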

Additional observations from a re-analysis of the deposited data

How the results depend on the processing

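With 1 library per culture no replicate could be left out, and whether the differences recur in a second culture cannot be read from these data. No paired analysis was possible because each culture has 1 library. The numbers of the 10 genes over 2-fold, 2 higher and 3 lower, were within 1.5 times these under every alternative run except 1: with every cell weighted equally and 1 added to the mean per 10000 UMIs, the number higher was 0, with Tgfbr2 at 0.95 and Tgfb2 at 0.46 on the log2 scale. The number lower was 2 in that setting, where 1.17% of all genes were higher and 0.805% lower. That formula adds a constant that pulls low levels together. With nothing added, a setting tried after seeing the data, the number higher was 2. The same formula gave -0.77 for Id2. Among cells at or below the median G2/M level, Smad7 turned to 0.068, and the cause was not tested. The other 8 genes kept their sign under the 13 settings of processing compared, of which that with nothing added was the 1 added later. Ranges of the log2 ratio were -1.91 to -1.27 for Id1 and -2.82 to -1.78 for Id3, and 0.14 to 1.12 for Tgfbr1. The share of higher calls among all calls was 65.0%, 52.5% with TMM and 75.9% with mitochondrial and ribosomal genes kept. Depth limits Bmp4, where only the upper bound is known, and joint detection of the receptors. The shares of cells with a UMI moved with thinning for 9 of the 10 genes, all but Bmp4.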
